A study of Homo sapiens with 6 samples.

Results

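The aldo-keto reductases examined here are 8 genes, AKR1A1, AKR1B1, AKR1B10, AKR1C1, AKR1C2, AKR1C3, AKR7A2 and AKR7A3, out of 60664 gene IDs in the count table. They were taken by symbol, and all 8 were among the 16102 genes that passed the filter on low counts. The genes were selected on the counts of these 6 libraries, that is with their difference between the groups already known, by a list of symbols that sets no threshold. Their differences between the groups are therefore given as a description, without p-values. Where the threshold used for all genes is applied to them, the count only describes them and is no independent test. RNA was sequenced from HCT-8, an established human colorectal cancer line. Cells were transfected with a control hairpin plasmid (shNC, 3 libraries) or with a plasmid whose short hairpin RNA targets the transcript of PNISR (shPNISR, 3 libraries), and nothing else is labelled as differing between them. For the hairpin sequence, the time after transfection and any selection of transfected cells, the sources used here give nothing. The labels do not name separate cultures, so the spread between libraries, and p-values built on it, may be technical.

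Aldo-keto reductases are NADPH-dependent enzymes that reduce the carbonyl group of aldehydes and ketones to an alcohol. The family covers sugar aldehydes, lipid peroxidation products, retinal, steroids and prostaglandins, and its substrates overlap between members. Several AKR1C genes and AKR1B10 are known targets of NRF2, the transcription factor that KEAP1 holds down until oxidants or electrophiles release it. In the gut, AKR1B10 is an enzyme of the epithelium that removes dietary and lipid-derived aldehydes and reduces retinal.

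The targeted gene checks the labels. PNISR had raw counts of 1002, 776 and 943 in shNC and 313, 333 and 450 in shPNISR, and its level with shPNISR was 39.7% of that with shNC (log2 fold change -1.33 ± 0.15 SE, edgeR quasi-likelihood test, two-sided, adjusted p = 8.73e-05). Totals ran from 15049485 to 17977803 counts per library. The 10 colorectal epithelial markers summed to 4336 to 4941 CPM in shNC and 4803 to 6042 CPM in shPNISR, where CPM is counts per 1000000 counts of the scaled library. The 7 fibroblast markers summed to 16.9 to 25.4 CPM in shNC and 25.2 to 29.6 CPM in shPNISR with COL1A2 at 0 counts throughout, and the 6 leukocyte markers to 3.53 to 4.85 and 4.08 to 5.57 CPM with PTPRC at 0 counts throughout. The 4 endothelial markers summed to at most 1.66 CPM and the 3 hepatocyte markers to at most 0.296 CPM. The part of these markers in the values below was not tested, and in bulk RNA fewer cells of a type cannot be told apart from less RNA per cell. On the first principal component shNC 2 (0.787) stood apart from shNC 1 and 3 (-35.2 and -31.2). The shPNISR libraries lay at 16.9 to 24.6. Some values without shNC 2 are therefore given below.

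The members sit at 4 places in the genome (GENCODE release 29, GRCh38). AKR1C1 (ENSG00000187134, plus strand, chr10:4963253-4983283), AKR1C2 (ENSG00000151632, minus strand, chr10:4987400-5018031) and AKR1C3 (ENSG00000196139, plus strand, chr10:5035354-5107686) form 1 cluster. AKR1B1 (ENSG00000085662, minus strand, chr7:134442350-134459284) and AKR1B10 (ENSG00000198074, plus strand, chr7:134527592-134541408) lie close together on chromosome 7. AKR7A3 (ENSG00000162482, minus strand, chr1:19282558-19289250) and AKR7A2 (ENSG00000053371, minus strand, chr1:19303965-19312146) adjoin each other on chromosome 1. AKR1A1 (ENSG00000117448, plus strand, chr1:45550543-45570049) lies alone. AKR1C2 overlaps an antisense gene (ENSG00000224251) that had a highest count of 0 in any library, and AKR7A2 overlaps the snRNA gene RNU6-1099P, whose highest count was 4.

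How far counts of single members can be trusted depends on how alike their transcripts are, so the sequences come before the values. Coding sequences of 1 GENCODE transcript per gene were aligned. AKR1C1 and AKR1C2 were identical at 950 of 969 coding bases (98.04%), and AKR1C3 matched them at 91.43% and 91.02%. AKR7A2 and AKR7A3 matched at 92.15% of aligned bases, while AKR1B1 and AKR1B10 matched at only 77.07%. AKR1B10 was closest to AKR1B15, a neighbouring gene outside the 8, at 93.46%. The 75 coding bases shown here, from exon 2, are those where AKR1C1 and AKR1C2 differed most within 1 exon. Capitals mark the 17 positions that are not the same in all 3 genes.
AKR1C1, plus strand, chr10:4965917-4965991: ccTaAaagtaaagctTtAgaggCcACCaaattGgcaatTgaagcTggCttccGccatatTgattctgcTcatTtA
AKR1C2, minus strand, chr10:5001604-5001678: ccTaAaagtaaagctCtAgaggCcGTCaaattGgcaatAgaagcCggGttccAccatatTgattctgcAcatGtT
AKR1C3, plus strand, chr10:5096413-5096487: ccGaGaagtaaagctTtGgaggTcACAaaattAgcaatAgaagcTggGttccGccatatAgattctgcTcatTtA
In this window AKR1C1 differed from AKR1C2 at 10 bases and from AKR1C3 at 9, and AKR1C2 differed from AKR1C3 at 15. Over the whole coding sequence AKR1C1 and AKR1C2 differed at 19 bases, so 10 of those 19 fall in this stretch.

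**Figure D1:**
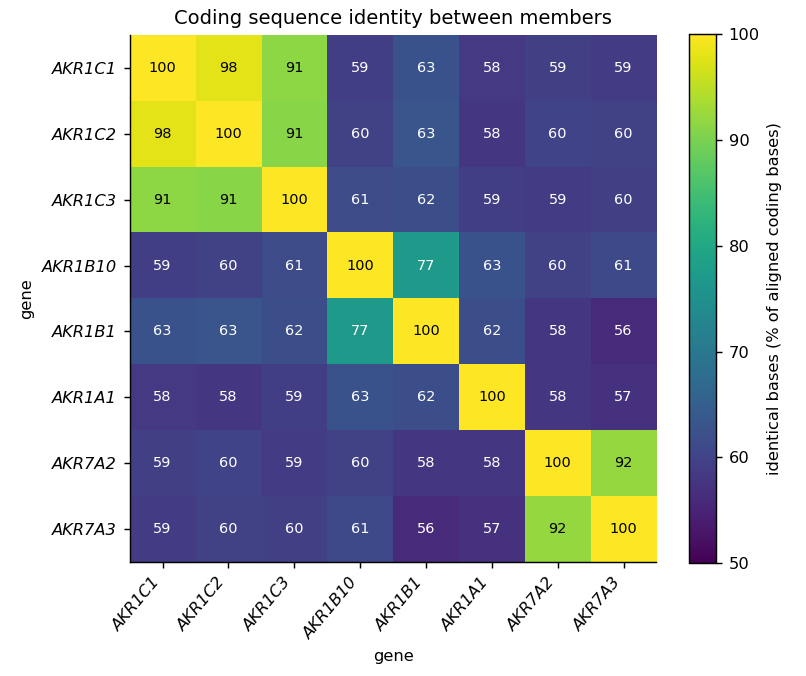
Percent of identical bases between the aligned coding sequences of each pair of the 8 genes, with genes on both axes and the percent written in each cell and given by the colour scale. AKR1C1 and AKR1C2 are the closest pair at 98.04%, followed by AKR7A2 with AKR7A3 at 92.15% and AKR1C1 with AKR1C3 at 91.43%.

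A stretch of 50 bases that occurs unchanged in another gene cannot assign a read. Such stretches made up 52.2% of all 50-base windows of the AKR1C2 transcript and 28.7% of those of AKR1C1, nearly all of them shared between this pair. For AKR7A3 the share was 23.3% (with AKR7L), for AKR1B10 17.4% (mostly with AKR1B15), for AKR1C3 12.1%, for AKR7A2 8.0% and for AKR1B1 4.78%, and AKR1A1 had 0 shared windows of 1769. Within the coding sequence alone, the 50-base shares were 57.07% for AKR1C2 and 54.35% for AKR1C1. The transcript used for AKR1C1 is the longer of the pair, with 6705 bases against 3756. Coding shares were 31.46% for AKR7A3, 28.48% for AKR1B10, 23.04% for AKR1C3, 10.21% for AKR7A2 and 7.23% for AKR1B1. At 100 bases the shares of whole transcripts fell to 32.9% for AKR1C2 and 17.4% for AKR1C1, and were at most 12.2% for the others. Neither the read length nor the treatment of reads with several matches is given in the sources used here. The split of counts between AKR1C1 and AKR1C2 is therefore uncertain, and summed counts are given beside the single genes.

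Levels were compared between genes per kilobase of the same GENCODE transcripts. In shNC, AKR1B1 stood highest at 141 ± 13.3 CPM per kilobase (mean ± SD, 3 libraries), followed by AKR1B10 at 98.3 ± 9.82, AKR1A1 at 71.5 ± 6.09 and AKR7A2 at 61.0 ± 6.50. AKR1C3 (14.6 ± 3.41), AKR1C1 (3.15 ± 0.338), AKR1C2 (1.28 ± 0.164) and AKR7A3 (0.990 ± 0.131) followed. The libraries of AKR1A1 and AKR7A2 overlapped, with 64.9 to 77.0 and 54.6 to 67.6 CPM per kilobase; those of the other neighbours in this order did not. In shPNISR, AKR1B10 stood first at 184 ± 19.2 and AKR1B1 second at 136 ± 10.4 CPM per kilobase. This order rests on the length used. Per kilobase of all annotated exons, AKR1B10 was already first in shNC (89.6) and AKR1B1 second (54.2), since the exons of AKR1B1 add up to 3660 bases against a transcript of 1409. On that measure AKR7A2 (46.7) also stood above AKR1A1 (41.6), and AKR7A3 (0.990) above AKR1C2 (0.744). The transcripts of AKR1C3 and AKR1C1 had 1807 and 6705 bases. Without a length their shNC levels overlapped, at 20.3 to 32.6 and 19.4 to 23.7 CPM.

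AKR1B10, the retinal and lipid-aldehyde reductase of the gut epithelium, had the most counts of the 8 genes with shPNISR. The shNC libraries 1 to 3 held 2557, 2662 and 2331 raw counts of it and the shPNISR libraries 5160, 5056 and 4193. Scaled levels were 141, 172 and 155 CPM in shNC and 306, 314 and 257 CPM in shPNISR. All 3 shPNISR libraries lay above all 3 shNC libraries, and the lowest shPNISR library was 257 CPM against 172 CPM for the highest shNC library. The fitted log2 fold change was 0.90 ± 0.12 (SE), a 1.87-fold difference. With AKR1B15 added to its counts the value was again 0.90 ± 0.12, and AKR1B15 itself had only 4 to 7 counts in shNC and 6 to 13 in shPNISR.

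AKR1B1 encodes aldose reductase, which turns glucose into sorbitol in the polyol pathway. Its levels were 182, 219 and 195 CPM in shNC and 192, 205 and 176 CPM in shPNISR. The groups overlapped, and the log2 fold change was -0.05 ± 0.11. Because both genes are read in the same library, their ratio needs no scaling. For each AKR1B1 count, AKR1B10 had 0.778, 0.788 and 0.794 counts in the shNC libraries and 1.59, 1.53 and 1.46 in the shPNISR libraries. The mean ratio was 0.787 ± 0.00835 (SD, 3 libraries) in shNC and 1.53 ± 0.0646 in shPNISR, without overlap.

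AKR1C1 is a hydroxysteroid dehydrogenase that inactivates progesterone. It had 368, 366 and 291 raw counts in the shNC libraries and 728, 793 and 636 in the shPNISR libraries, or 20.3, 23.7 and 19.4 CPM against 43.1, 49.2 and 39.0 CPM. The groups did not overlap, and the log2 fold change of 1.05 ± 0.14 (2.07-fold) was the highest of the 8. AKR1C2, which reduces dihydrotestosterone to a weak androgen, was rarer. The shNC libraries held 83, 85 and 65 raw counts of it and the shPNISR libraries 156, 132 and 116, or 4.58, 5.50 and 4.33 CPM against 9.24, 8.19 and 7.11 CPM. These groups did not overlap either, with a log2 fold change of 0.77 ± 0.20.

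AKR1C3 makes testosterone from androstenedione and also acts as a prostaglandin F synthase. The shNC libraries held 367, 503 and 392 raw counts of it and the shPNISR libraries 629, 712 and 572. On the scaled level these were 20.3, 32.6 and 26.1 CPM against 37.2, 44.2 and 35.1 CPM. The groups did not overlap, but shNC 2 (32.6 CPM) came close to the lowest shPNISR library (35.1 CPM), and the shNC libraries were spread wider than for any other member (SD 0.34 on the log2 scale, against 0.12 to 0.18 for the other 7). The log2 fold change was 0.56 ± 0.16, or 0.74 without shNC 2 and 0.40 without shNC 1.

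The sum of the 3 AKR1C genes does not depend on how counted reads were split among them. The sum was 818, 954 and 748 counts in shNC and 1513, 1637 and 1324 in shPNISR, or 52.2 ± 8.57 and 90.8 ± 10.2 CPM (mean ± SD, 3 libraries each). The libraries of the 2 groups did not overlap, and the log2 fold change of the sum was 0.80 ± 0.13 (1.74-fold). Within the sum, AKR1C1 took 45.0%, 38.4% and 38.9% of counts in shNC and 48.1%, 48.4% and 48.0% in shPNISR. AKR1C3 took 44.9%, 52.7% and 52.4% in shNC and 41.6%, 43.5% and 43.2% in shPNISR. AKR1C1 thus held a larger and AKR1C3 a smaller share in every shPNISR library than in any shNC library. The share of AKR1C2 overlapped between the groups, at 8.69% to 10.1% in shNC and 8.06% to 10.3% in shPNISR.

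**Figure D2:**
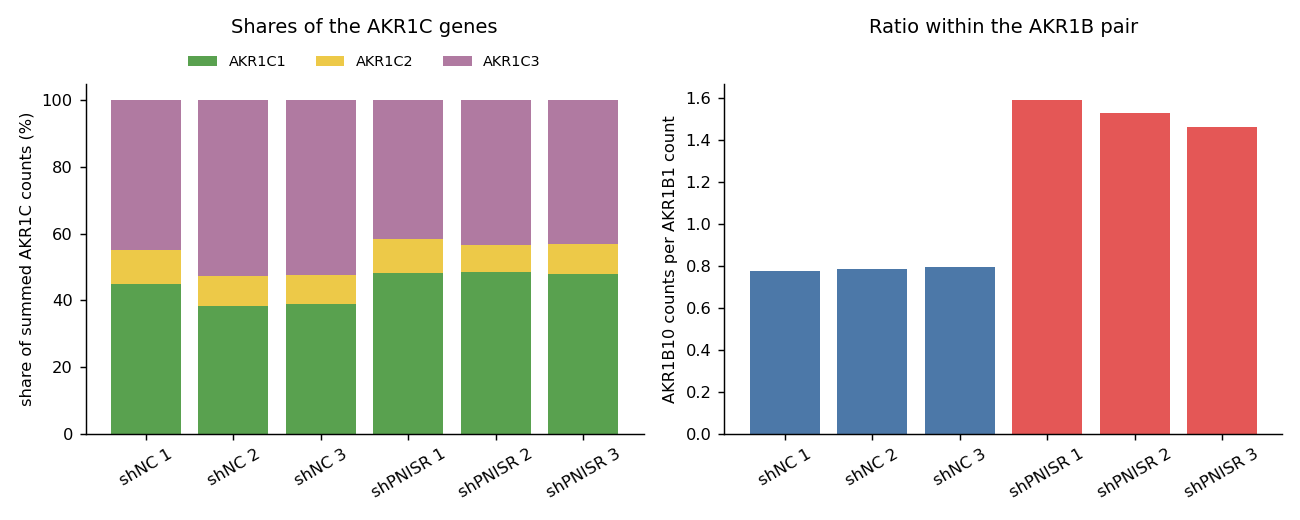
Left, shares of AKR1C1, AKR1C2 and AKR1C3 in their summed counts (%, bars stacked to 100) in each library. Right, counts of AKR1B10 per count of AKR1B1 in each library, from 0.778 to 0.794 in shNC (blue) and from 1.46 to 1.59 in shPNISR (red).

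The remaining members showed smaller differences. AKR1A1, the aldehyde reductase that also acts on glucuronate, was at 118, 140 and 132 CPM in shNC and 166, 165 and 136 CPM in shPNISR. Its groups overlapped through shPNISR 3, and the log2 fold change was 0.26 ± 0.11. AKR7A2, a reductase of succinic semialdehyde, was at 74.4, 92.1 and 82.9 CPM in shNC and 85.1, 96.0 and 81.1 CPM in shPNISR, with a log2 fold change of 0.07 ± 0.12. AKR7A3, known for reducing aflatoxin dialdehyde, was near the lower end of what could be counted, with 23 to 30 raw counts in shNC and 28 to 34 in shPNISR. Its log2 fold change was 0.11 ± 0.29, a standard error wider than that of any other member. For AKR1B1, AKR7A2 and AKR7A3 the sign was not stable, being opposite in 2 of 17, 3 of 16 and 1 of 16 alternative settings. For AKR7A2 (-0.14) and AKR7A3 (-0.11) these included the loess correction by transcript GC and by the length of all annotated exons. With that correction the value of AKR1A1 was 0.10, its lowest in any of 17 alternatives.

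**Figure D3:**
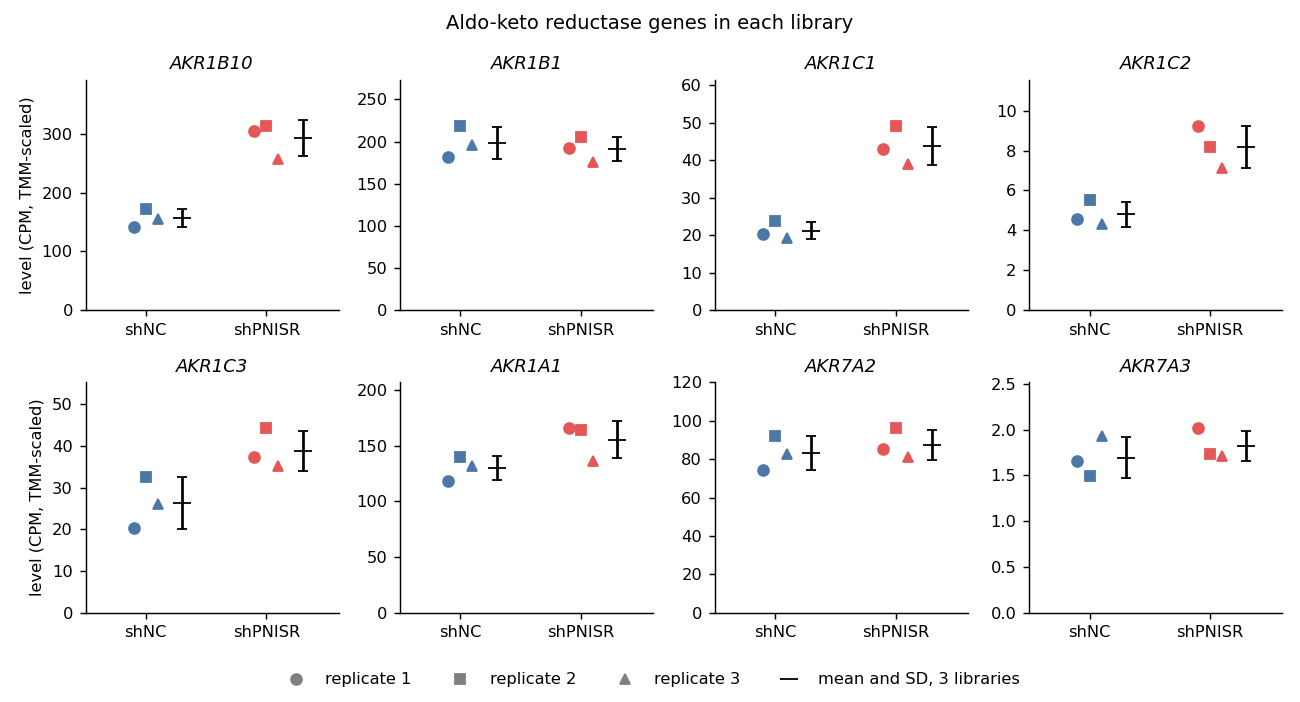
Level of each gene in CPM (linear axes from 0, different in each panel) in the 3 shNC (blue) and 3 shPNISR (red) libraries, with marker shapes for replicate numbers and a black bar for mean ± SD. AKR1B10, AKR1C1, AKR1C2 and AKR1C3 have every shPNISR library above every shNC library, and the other 4 genes overlap.

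Set side by side, 7 of the 8 members had a fitted log2 fold change above 0 and the median was 0.41. Over all 16102 genes the median was -0.01 and 47.9% were above 0. For 4 of the 8 every shPNISR library lay above every shNC library, where 11.5% of all genes tested were higher without overlap 9.58% were lower without overlap and 21.1% did not overlap in either direction. With a threshold of 0.05 on the adjusted p from edgeR, 3 of the 8 (AKR1B10, AKR1C1 and AKR1C2) were among the genes called higher, a call made for 2.3% of all genes tested, and no member was called lower (0.832% of all genes). Because the members were chosen with these values known, the counts describe them and support nothing further. AKR1B10 and AKR1C1 were on the same side of that threshold in each of 16 alternative settings. AKR1C2 was not called without any 1 library other than shNC 2, with library totals, or with the replicate block (0.77). AKR1C3 was called in 6 of 16, among them without shNC 2, without shNC 3 and with the replicate block (0.58). With 1 library left out, the median log2 fold change of the members was highest without shNC 2 (0.53) and lowest without shNC 1 (0.30). Without shNC 2 the fold change was 0.98 for AKR1B10, 1.14 for AKR1C1, 0.87 for AKR1C2 and 0.02 for AKR1B1. The lowest values with 1 library left out were 0.83, 0.95, 0.68 and -0.12 for these genes in the same order. All 8 members were lowest, within their group, in shPNISR 3, and 7 of 8 were highest in shNC 2, the exception being AKR7A3. Together the 8 genes took 0.0622 ± 0.00585% of all counts in shNC and 0.0815 ± 0.00507% in shPNISR, with no overlap between the groups (0.0566% to 0.0683% and 0.0762% to 0.0863%). Within that total AKR1B10 held 25.1% to 25.2% in the shNC libraries and 35.1% to 36.4% in the shPNISR libraries.

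**Figure D4:**
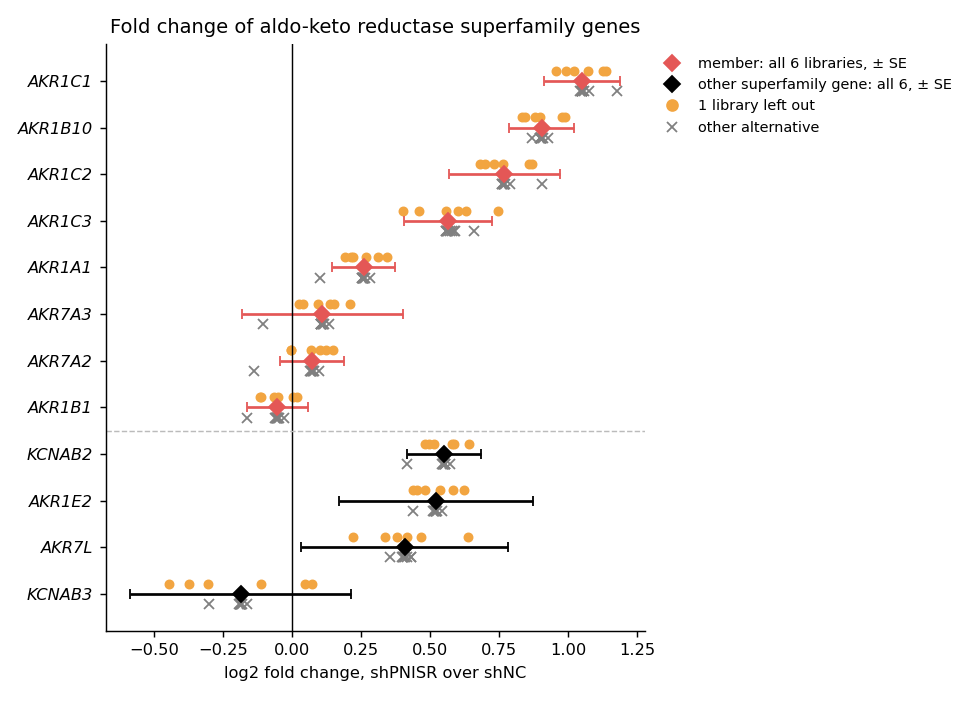
Fitted log2 fold change of shPNISR over shNC for the 8 members (red diamonds) and for the other tested genes of the superfamily (black diamonds), with SE bars. Orange dots leave out 1 library each and grey crosses are other settings; AKR1C1 and AKR1B10 stay at or above 0.83 in all of them, and AKR1B1, AKR7A2 and AKR7A3 lie on both sides of 0.

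Of the other genes of the superfamily 4 passed the filter on low counts. AKR1C4, a liver enzyme of bile acid and steroid metabolism, and the pseudogene AKR1C6P had 0 counts in all 6 libraries, which allows up to 3 counts or 0.165 to 0.199 CPM per library (counting error only). AKR1D1, which reduces bile acid precursors in liver, had 1 count in shNC 1 and 0 elsewhere. AKR1C8 had 1 count in shPNISR 3 alone, the pseudogene AKR1C7P had 1, 3 and 3 counts in shPNISR and 0 in shNC, and KCNAB1 had at most 1 count. Of these 4, KCNAB2, a beta subunit of voltage-gated potassium channels with an aldo-keto reductase fold, rose from 24.8 ± 2.72 to 36.3 ± 3.22 CPM. Its libraries read 23.5, 27.9 and 22.9 CPM in shNC and 40.0, 34.1 and 34.7 CPM in shPNISR, with no overlap (log2 fold change 0.55 ± 0.13, edgeR quasi-likelihood test, adjusted p = 0.0304). That call ended without shNC 1, shNC 3, shPNISR 1 or shPNISR 3 and with library totals, and adjusted p over the alternatives ran from 0.00338 to 0.183. AKR1E2 (0.848 ± 0.108 and 1.21 ± 0.133 CPM), AKR7L (0.817 ± 0.232 and 1.07 ± 0.103 CPM) and KCNAB3 (1.08 ± 0.382 and 0.949 ± 0.341 CPM) did not pass. Over all genes tested 3.14% were called and 11.5% were higher without overlap. A list of 4 genes is too short for a count of 1 to set it apart.

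Of the 8 nearest tested genes outside the superfamily on either side of the members, 1 passed the test, at a low level, and 7 did not. Over all genes tested 3.14% were called, and 8 genes are too few for a count of 1 to set them apart. BPGM, which makes the regulator of haemoglobin oxygen affinity in red cells, lies 105400 bases above AKR1B10 and had means of 24.2 ± 1.45 and 25.1 ± 1.80 CPM in shNC and shPNISR. LINC03060, below AKR1B1, was at 2.91 ± 0.601 and 3.53 ± 0.505 CPM, and neither passed. KLF6, a zinc finger transcription factor and the nearest such gene below the AKR1C cluster at 1177972 bases from AKR1C1, was at 52.7 ± 7.02 and 61.6 ± 8.68 CPM and did not pass. On the other side TUBAL3, a tubulin-like gene 285412 bases above AKR1C3, rose from 0.275 ± 0.118 to 0.974 ± 0.284 CPM (log2 fold change 1.83 ± 0.49, edgeR quasi-likelihood test, adjusted p = 0.0485). At such a low level the call was fragile: it ended in 10 of 16 alternatives, among them without shNC 1 or any 1 shPNISR library (adjusted p over the alternatives from 0.0299 to 0.276). MRTO4 and SLC66A1 beside the AKR7A genes and PRDX1 and NASP beside AKR1A1 had log2 fold changes from -0.13 to 0.28 and did not pass.

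The stretch just upstream of a start site was compared for 7 members, all but AKR1B10, from RefSeq windows (GRCh38.p14), 250 bases up to the start. The AKR1C windows are shown because these 3 clustered genes all had fold changes above 0, and AKR7A2 is shown because it alone of the 7 held the searched core of the antioxidant response element, the site bound by NRF2. The searched letters were TGACNNNGC for that core, TGACTCA for the AP-1 element, TATAAA for the TATA box and CCAAT for the CAAT box, each on both strands. Capitals mark matches to any of these.
AKR1C1, plus strand, chr10:4963165-4963414: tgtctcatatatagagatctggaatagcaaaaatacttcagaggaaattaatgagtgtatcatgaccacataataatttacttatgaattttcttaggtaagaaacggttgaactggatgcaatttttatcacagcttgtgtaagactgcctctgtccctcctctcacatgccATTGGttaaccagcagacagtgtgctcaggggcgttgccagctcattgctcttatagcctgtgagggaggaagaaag
AKR1C2, minus strand, chr10:5003858-5004107: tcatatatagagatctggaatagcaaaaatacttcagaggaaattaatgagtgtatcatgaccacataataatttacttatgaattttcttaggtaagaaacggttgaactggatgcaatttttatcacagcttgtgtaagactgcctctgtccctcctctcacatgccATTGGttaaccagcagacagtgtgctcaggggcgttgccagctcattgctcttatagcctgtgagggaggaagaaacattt
AKR1C3 (1 of its 2 listed starts), plus strand, chr10:5094164-5094413: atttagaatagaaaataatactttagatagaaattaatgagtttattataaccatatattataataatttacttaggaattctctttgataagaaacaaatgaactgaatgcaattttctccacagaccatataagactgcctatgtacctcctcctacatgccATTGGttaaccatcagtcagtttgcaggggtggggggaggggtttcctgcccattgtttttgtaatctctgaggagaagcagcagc
AKR7A2 (1 of its 2 listed starts), minus strand, chr1:19312147-19312396: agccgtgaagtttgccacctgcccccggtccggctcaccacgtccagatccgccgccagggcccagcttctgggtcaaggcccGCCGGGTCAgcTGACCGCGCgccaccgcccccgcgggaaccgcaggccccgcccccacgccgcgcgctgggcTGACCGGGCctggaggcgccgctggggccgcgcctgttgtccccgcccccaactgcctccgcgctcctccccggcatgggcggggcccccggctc
The AKR1C1 and AKR1C2 windows were the same at 245 of 246 aligned bases (99.59%) although the genes lie on opposite strands, and AKR1C3 matched them at 78.63% and 78.72%. All 3 held 1 CAAT box on the minus strand, 77 to 73 bases before the start in AKR1C1, 81 to 77 in AKR1C2 and 86 to 82 in AKR1C3; 32.01% of 35116 promoter windows of this length held such a match. The AKR7A2 window held 3 matches to the antioxidant response core, and 10.91% of windows held at least 1. None of the windows of the 7 members held an AP-1 match, which 4.2% of windows did. The other listed start of AKR1C3 had a TATA box match 26 to 21 bases before it, the only such match among the 7, and 10.72% of windows held one. AKR1B1 also held a CAAT box. A match is only a run of letters, and its absence says only that the letters are not in these 250 bases. Among the NRF2 target genes listed next, 10 of the 25 with a window held the core. Of the 7 called higher, 6 had a window and 2 of these, EPHX1 and GPX2, held it. These are counts of genes, while the 10.91% is a share of windows, so they are not on the same measure.

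NRF2 target genes were looked at as the pathway that the AKR1B10 and AKR1C genes are known to belong to. Of 31 tested members of a list of 32 (without the aldo-keto reductases), 7 rose, none fell and 24 did not pass, or 22.6% called against 3.14% of all genes tested. The list was chosen with earlier results of these data known, so its counts describe it and are no independent test. Their median log2 fold change was 0.29, and 28 of 31 were above 0, against 47.9% of all genes. OSGIN1, an oxidative stress response gene, rose from 18.9 ± 1.10 to 34.4 ± 2.51 CPM (log2 fold change 0.87 ± 0.13, adjusted p = 0.00107 by edgeR's quasi-likelihood test). NQO1, a quinone reductase and the textbook NRF2 target, read 721, 888 and 808 CPM in shNC and 1295, 1398 and 1208 CPM in shPNISR, with no overlap (0.69 ± 0.12, adjusted p = 0.00311). GPX2, the glutathione peroxidase of the gut, rose from 110 ± 6.72 to 170 ± 21.1 CPM (0.63 ± 0.12), and ABCC2, a conjugate exporter, from 2.09 ± 0.228 to 4.58 ± 0.259 CPM (1.13 ± 0.24). EPHX1, an epoxide hydrolase, and FTL, the ferritin light chain, also passed, named here after their values were seen.

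The NRF2 list was not uniform. HMOX1 (36.0 ± 3.96 and 33.2 ± 1.86 CPM), GCLM (45.3 ± 10.6 and 46.3 ± 1.38 CPM), SRXN1 and TXN, all known targets and named after their values were seen, had log2 fold changes between -0.12 and 0.03 and did not pass. OSGIN1, NQO1 and GPX2 passed in each of 17 alternatives. ABCC2 did not pass without shNC 1 or shPNISR 1. EPHX1 and FTL did not pass without shNC 1, shPNISR 1 or shPNISR 2 or with the loess correction, nor FTL without shNC 3. The count of the list fell to 3 without shNC 1 or shPNISR 1 and to 4 without shPNISR 2, and was 11 without shNC 2. Calls over all genes moved the same way, from 505 to 199, 163 and 276 without shNC 1, shPNISR 1 and shPNISR 2. They were 2030 without shNC 2. Of the 7 regulators of this pathway none was called by edgeR, DESeq2 or limma voom, and 2 had an unadjusted p under 0.05 by edgeR. As 3.14% of all genes tested were called, a list of 7 is too short for a count of 0 to set it apart. The share of all genes under that unadjusted p is not given here, so the 2 cannot be set against it. KEAP1, the inhibitor of NRF2, read 133, 121 and 145 CPM in shNC and 143, 135 and 112 CPM in shPNISR, and NFE2L1 was at 219 ± 18.1 and 247 ± 26.0 CPM. NFE2L2, which encodes NRF2 and was named after its values were seen, was at 50.1 ± 5.62 and 46.5 ± 4.30 CPM. Without shNC 2, 1 regulator (MAFF) rose (adjusted p = 0.00747, with a range of 0.00747 to 0.551 over the alternatives).

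**Figure D5:**
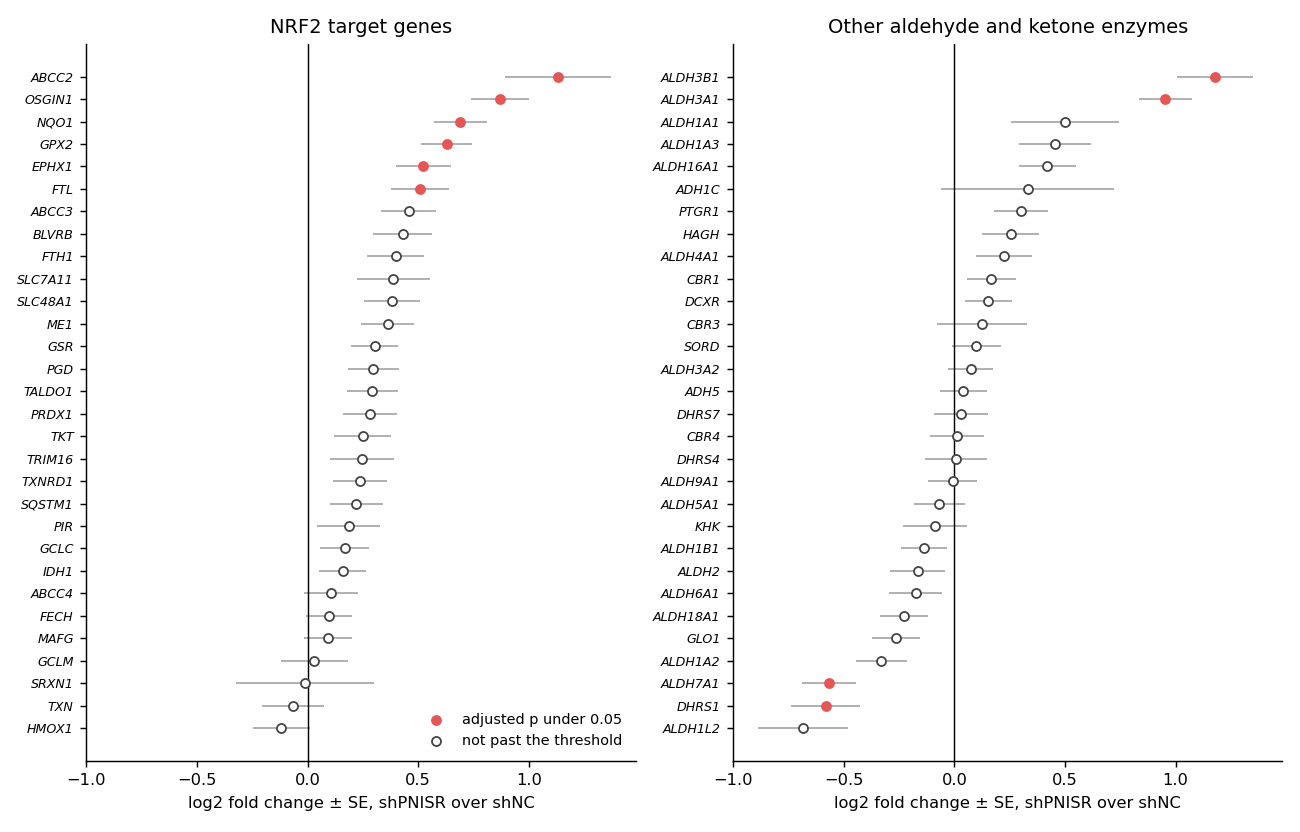
Fitted log2 fold change ± SE of shPNISR over shNC for tested genes of the NRF2 list (left, 1 gene not drawn) and of the list of other aldehyde and ketone enzymes (right), with red dots for genes past an adjusted p of 0.05. Of the 30 NRF2 genes drawn 27 lie above 0 and 6 passed; in the other list 2 passed on each side of 0.

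Other enzymes that handle aldehydes and ketones moved in both directions. Of 30 tested genes 2 rose, 2 fell and 26 did not pass, or 13.3% called against 3.14% of all genes tested, and the median log2 fold change was 0.03. This list was also chosen with earlier results known, so the share only describes it. Without shNC 2, 4 rose and 2 fell, and without shPNISR 1 or shPNISR 3 only the 2 that rose were called. The calls over all genes changed as well, from 505 to 2030 without shNC 2, 163 without shPNISR 1 and 250 without shPNISR 3. ALDH3A1, which oxidises aromatic and lipid-derived aldehydes, rose from 175 ± 14.9 to 339 ± 44.3 CPM (0.95 ± 0.12, edgeR quasi-likelihood test, adjusted p = 0.000245), against 0.90 for AKR1B10. Its relative ALDH3B1 rose from 10.4 ± 2.52 to 23.6 ± 1.79 CPM (1.18 ± 0.17). ALDH7A1, of lysine breakdown, fell from 147 ± 17.5 to 99.5 ± 13.1 CPM (-0.57 ± 0.12), and DHRS1, a short-chain dehydrogenase, fell from 19.6 ± 1.98 to 13.1 ± 1.75 CPM (-0.58 ± 0.16). ALDH3A1 and ALDH3B1 passed in each of 17 alternatives. The call of ALDH7A1 ended without shPNISR 1 or shPNISR 3 and with the loess correction. That of DHRS1 ended in 10 of 17, among them without shNC 1, shNC 3, shPNISR 1 or shPNISR 3 and with the replicate block. SORD, the next enzyme after AKR1B1 in the polyol pathway and named after its values were seen, had a log2 fold change of 0.10 ± 0.11 and did not pass.

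Enzymes that share steroid, retinoid or prostaglandin substrates with the AKR1C genes and AKR1B10 gave no call. Of 29 tested genes 0 passed by edgeR, DESeq2 or limma voom at an adjusted p of 0.05, and 9 had an unadjusted p under 0.05 by edgeR. The share of all genes under that unadjusted p is not given here, so the 9 cannot be read as many or few. With 3.14% of all genes called, a list of this size is too short for a count of 0 to set it apart. The 2 at the highest level were PTGES3, a prostaglandin E synthase and cochaperone (724 ± 57.5 and 721 ± 62.5 CPM), and HSD17B4, a peroxisomal enzyme (199 ± 16.3 and 194 ± 5.73 CPM). Without shNC 2, 4 of the 29 rose and 2 fell, while the calls over all genes went from 505 to 2030. The 3.14% comes from the fit with all 6 libraries, so these counts cannot be set against it.

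The genes whose levels over the 6 libraries were most like the summed AKR1C level were FBXO2, UNC93B1, TNNT1, CAPG and FBXW4, by Pearson's r on log2 CPM. Their r ran from 0.998 to 0.995, but the measure is dominated by the difference between the groups, and 317 of 16099 genes reached at least 0.95. FBXO2, a substrate adaptor of an SCF ubiquitin ligase that binds glycoproteins, had means of 31.7 ± 6.47 and 68.9 ± 8.94 CPM in shNC and shPNISR. CAPG, an actin-capping protein, was at 62.4 ± 10.5 and 111 ± 10.8 CPM and TNNT1, a troponin, at 55.1 ± 9.77 and 101 ± 9.82 CPM. UNC93B1, a chaperone of endosomal Toll-like receptors, was at 33.0 ± 3.41 and 46.8 ± 2.85 CPM, and FBXW4 at 30.1 ± 1.20 and 34.7 ± 1.32 CPM. NQO1 ranked 12th (r = 0.993) and AKR1B10 42nd (0.985) in the same order.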

How the data were processed

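Read counts per Ensembl gene ID, whole numbers and not normalized by the authors (totals differ between libraries), were deposited for 6 HCT-8 libraries. Per the submitters' processing notes HISAT2 2.0.4 and GRCh38 were used. Counter, annotation release and strand setting are unknown here, so antisense and overlapping genes cannot be separated. Columns were matched to libraries by title. Symbols, found for 60463 of 60664 IDs, and positions came from a gene name table and GENCODE release 29.

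Genes were filtered with edgeR 4.0.16 (filterByExpr, minimum count 10, minimum total 15), scaled by TMM and compared by a robust two-sided quasi-likelihood test over the 6 libraries, with Benjamini-Hochberg adjustment over 16102 genes and a threshold of 0.05. SE is the fold change over the root of F. Log2 CPM use a prior count of 2. Sequences were aligned with Biopython 1.88.

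The members, lists and rules were chosen with earlier results of these data known. Named genes were PNISR, the members, superfamily genes with a count, up to 4 called genes per list by adjusted p (the 2 with the highest CPM where none was called), the nearest tested genes outside the superfamily, and the 5 most like the AKR1C sum. Alternatives were DESeq2 1.42.0 (size factors, test), upper-quartile factors, library totals, 2 other filters, limma 3.58.1 voom, no robust dispersion, the replicate block, a loess correction for GC and length (span 0.4), paralogs summed, and each library left out. Values of 1 gene of the NRF2 list, counted in that list, are not reported here.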

Additional observations from a re-analysis of the deposited data

How the results depend on the processing

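Over all genes, 371 were called higher and 134 lower with shPNISR (505 in all). Of 17 alternatives, 11 gave a count within 1.5 times of this. With no low-count filter 996 were called (642 higher, 354 lower), and leaving out 1 library gave 163 to 2030, the lowest without shPNISR 1 and the highest without shNC 2 (1284 higher, 746 lower). Without shNC 1, shPNISR 2 or shPNISR 3 the counts were 199, 276 and 250. The loess correction by transcript GC and by the length of all annotated exons kept 369 of the calls. It moved the split to 306 higher and 210 lower. The replicate block gave 508 calls, 438 of them shared. Same-numbered libraries did not deviate together (correlations 0.12, -0.081 and -0.15), so the number is taken as a name only.

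Leaving out 1 library gave 2 to 4 called members in place of 3, 3 to 11 NRF2 targets in place of 7, 0 to 1 NRF2 regulators in place of 0, 2 to 6 aldehyde and ketone enzymes in place of 4, 0 to 1 other superfamily genes in place of 1 and 0 to 6 steroid, retinoid and prostaglandin enzymes in place of 0. Library totals gave 0 other superfamily genes, and no low-count filter gave 1 steroid, retinoid or prostaglandin enzyme. The causes were not tested. Of 2064 values of 122 named or listed genes under alternatives, 57 lost and 31 gained a call and 0 of the called genes changed sign. Fewer libraries and the low counts of AKR7A3 and AKR1C2 limit precision, and the split of reads between AKR1C1 and AKR1C2 cannot be settled from gene counts.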
